A study of Homo sapiens with 27 samples.

Results

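The genes described here are 35 genes of homologous recombination, the Fanconi anaemia pathway, mismatch repair and the checkpoint kinases that act with them, measured on 27 Illumina bead arrays. The arrays hold RNA of SK-N-BE(2)c, a line grown from a human neuroblastoma. The genes were taken as a list of repair genes, each through the named probe with the highest mean over the arrays. The list was chosen with earlier results of these data known. A named probe was found for 26 of the 35, and 22 of these were bright enough to enter the test, out of 12664 genes tested in all. The cells were treated with PP242, an inhibitor of the mTOR kinase in both of its complexes, and cultured in hypoxia for 24, 48 or 72 h (4 arrays at each time). The matching cells received DMSO, the solvent, in hypoxia for 24 h (3 arrays), 48 h or 72 h (4 arrays each). A control of 4 arrays is labelled only as 0 h, with neither DMSO nor hypoxia stated, so hypoxia, DMSO and time in culture cannot be told apart in comparisons with it. The PP242 dose and the oxygen level are not given in the sources used here. All arrays come from 1 cell line, and nothing says that the samples of a group were separate cultures, so the p-values measure the spread between these samples, which may be technical.

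Homologous recombination repairs broken DNA and stalled replication forks by copying the intact sister chromatid: ends are cut back, the exposed strand pairs with the matching sequence, and helicases and nucleases resolve the joined molecules. The Fanconi proteins detect crosslinks between the strands and load the FANCI and FANCD2 pair onto DNA, after which recombination completes the repair. Mismatch repair corrects copying errors behind the fork, and CHEK1, CHEK2 and their upstream kinases hold the cell cycle while repair proceeds. Because many of these proteins work at replication forks, their transcripts are known to be abundant in cells that are replicating DNA, and E2F factors drive many of them.

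No named probe was found here for BRCA2, XRCC2, FANCA, FANCD2, FANCF, BRIP1, RBBP8, MSH6 and PMS1, and these 9 members are not described further. Another 4 members were dim. FANCL, the ubiquitin ligase of the Fanconi core, and NBN, a subunit of the MRN complex that binds broken ends, were above background on 1 array each. ATR, the kinase that answers stalled forks, was likewise above background on 1 array. RAD50, the MRN subunit that holds ends together, was above background on none of the 27. ATM, the kinase that answers breaks, entered the test with 5 of 27 arrays above background, 3 of them PP242 72 h and 2 control, and no fold is given for it. BLM was above background on 26 arrays and the other 20 tested members on all 27. Levels are given as log2 normalised intensity, on which a dark probe sits near 4, so changes of dim genes are understated, and no level of one gene is set against that of another. In bulk RNA, fewer cells of a type and less RNA per cell cannot be told apart.

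The deposited array medians lay between 98 and 113 intensity units, and the number of probes above background ran from 20729 to 22843. The lowest correlation between replicates was 0.949, in the control, and 0 pairs of arrays held identical values. Of 13 sympathoadrenal markers, 11 had a named probe and these 11 were above background on every array. Of 7 named immune markers 1 to 3 were above background on an array, and of 4 named endothelial markers 0 to 1. Of 6 named Schwann and mesenchymal markers 1 to 4 were, with summed intensities of 559 to 688 on the PP242 arrays, 746 to 1016 on the DMSO arrays and 684 to 986 on the control arrays. The part of these in the results was not tested.

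After 24 h, most of the tested members had lower levels with PP242 than with DMSO, by 1.59-fold to 6.3-fold among those that fell. Of the 22 tested members 17 fell and 0 rose (limma, adjusted p under 0.05), where 11.4% of all tested genes fell. At an unadjusted p under 0.05, 17 members were lower and 1 was higher (share of all genes not counted). The median change of the 22 was −1.41 on the log2 scale, against 0.01 for all genes. With the arrays scaled to one median in place of quantile normalization 17 members again fell, while the share of higher genes among all genes called was 23.4% in place of 47.9%, and 16.2% of all genes were then called lower. In 17 members the PP242 and DMSO arrays did not overlap. The share of all genes without overlap was not counted, so this count describes the members only.

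RAD51AP1, which stimulates strand invasion, had the largest change of the members. Its levels were 7.04, 8.05, 6.0 and 6.23 on the PP242 24 h arrays, against 9.54, 9.49 and 9.44 on the DMSO 24 h arrays. Every PP242 array lay below every DMSO array, and the second PP242 array was the highest of its group. In deposited intensity units the same arrays read 229, 321, 151 and 153 with PP242 and 1042, 882 and 930 with DMSO. The change was −2.66 ± 0.37 on the log2 scale (SE), or 6.3-fold lower with PP242 (limma adjusted p = 6.7e-06).

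FANCI, the clamp partner of FANCD2, had levels of 6.26, 7.05, 5.53 and 6.19 on the PP242 24 h arrays, against 8.61, 8.64 and 8.66 on the DMSO 24 h arrays. The DMSO arrays were almost level with each other, and the PP242 arrays were spread over more than 1 unit and all lay lower. FANCI fell by 2.38 ± 0.26 (log2, SE), 5.22-fold lower with PP242 (adjusted p = 2.89e-07). EXO1, the exonuclease that cuts back DNA at breaks and at mismatches, had levels of 7.06, 7.98, 6.60 and 6.50 with PP242 and 9.29, 9.18 and 9.32 with DMSO. Its groups did not overlap, and it fell by 2.23 ± 0.28 (adjusted p = 1.91e-06). BLM, the helicase that unwinds joined molecules with topoisomerase partners, had levels of 4.64, 6.04, 4.44 and 5.34 with PP242 and 7.26, 7.25 and 7.27 with DMSO. One PP242 array was not above background, so the lowest PP242 levels are close to the floor of the scale. The fitted change of BLM was −2.14 ± 0.31 (adjusted p = 1.41e-05).

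Among the pairing and strand exchange genes, 7 of 8 tested members fell, with a median of −1.51. RAD54L, the motor protein that remodels the joint molecule, averaged 5.07 ± 0.13 with PP242 (SD, n = 4) and 7.14 ± 0.08 with DMSO (SD, n = 3), a change of −2.06 (adjusted p = 2.44e-06). BRCA1, a ubiquitin ligase that promotes recombination at breaks, fell by 1.71 and its partner BARD1 by 1.33. XRCC3, which acts in strand exchange, fell by 1.68, MND1, best known in meiotic strand exchange, by 1.34 and RAD54B, the relative of RAD54L, by 0.94. The RAD54B call was lost without the second DMSO array (adjusted p = 0.062). PALB2, the bridge between BRCA1 and BRCA2, was the exception in the role group, with a change of 0.05 (95% interval −0.28 to 0.38, adjusted p = 0.879).

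Of the 3 junction genes EME1, the partner subunit of the MUS81 nuclease, averaged 4.89 ± 0.06 with PP242 (SD, n = 4) and 6.17 ± 0.20 with DMSO (SD, n = 3), and fell by 1.28 (adjusted p = 7.42e-06). MUS81 itself had a change of 0.27 (95% interval −0.15 to 0.69, adjusted p = 0.405), so the subunits of this nuclease differed in their calls, a difference that was not itself tested. In the Fanconi core, FANCG fell by 1.67 (adjusted p = 1.33e-07) and FANCC by 0.67 (adjusted p = 0.0184). The FANCC call was lost without the first or the third DMSO array or the third PP242 array (adjusted p 0.0544 to 0.0773). FANCE, the core subunit that contacts FANCD2, had a change of 0.32 (95% interval 0.08 to 0.57, adjusted p = 0.0518). It passed as higher under several processing alternatives, with an adjusted p of 0.0118 from the authors' own value table.

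Apart from EXO1, which also acts at mismatches and is given above, mismatch repair was represented by PMS2 alone. PMS2, the nuclease that nicks the new strand, had a change of 0.11 (95% interval −0.34 to 0.56, adjusted p = 0.784). UNG, the glycosylase that removes uracil from DNA, averaged 9.39 ± 0.38 with PP242 (SD, n = 4) and 10.86 ± 0.01 with DMSO (SD, n = 3), and fell by 1.47 (adjusted p = 3.35e-05). All 3 checkpoint members above background on every array fell. CHEK2, the kinase downstream of ATM, fell by 1.84 (adjusted p = 1.03e-06), CHEK1, the kinase downstream of ATR, by 1.75 (adjusted p = 0.000119) and TOPBP1, the activator of ATR, by 1.13 (adjusted p = 0.000169).

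**Figure D1:**
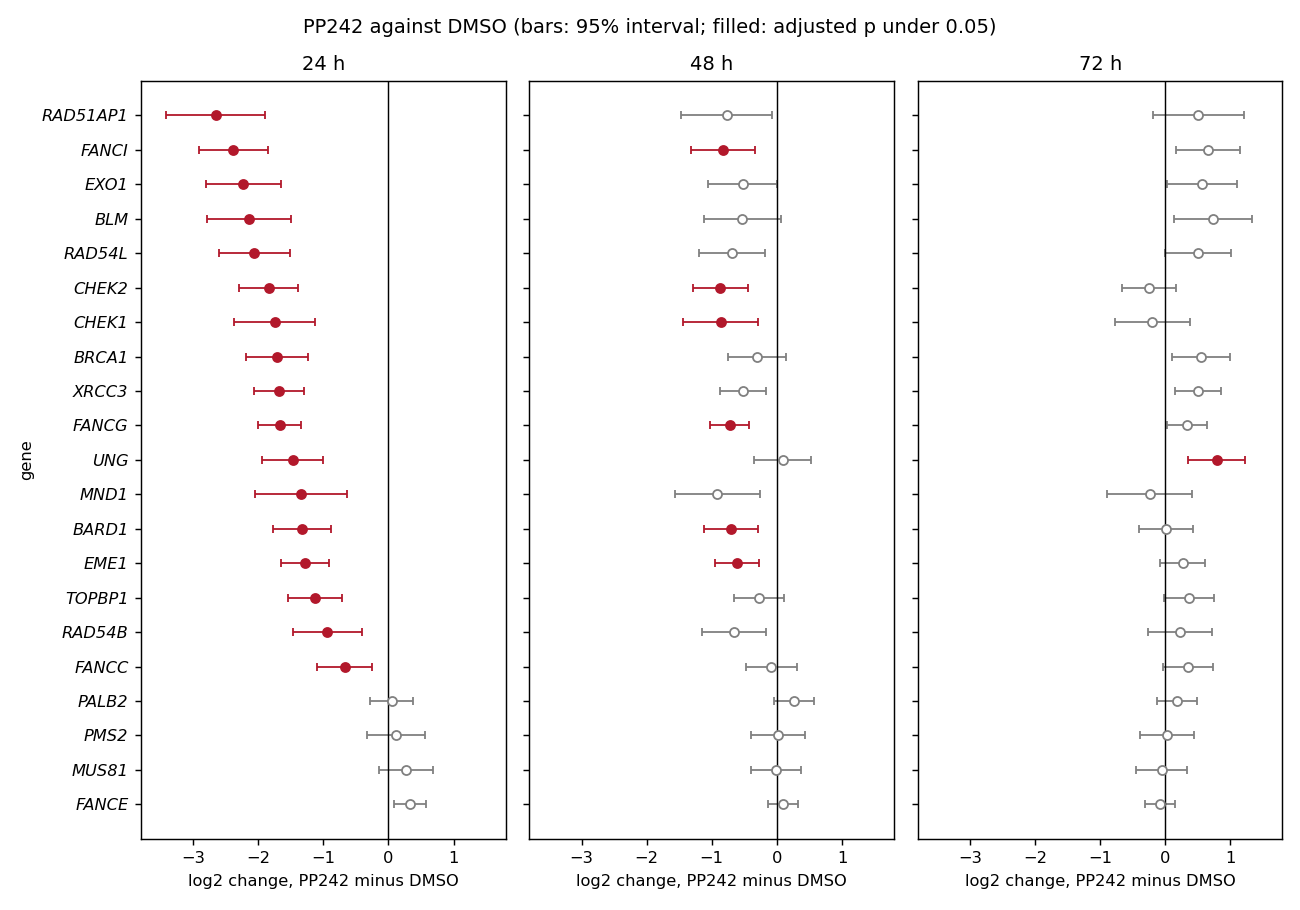
Log2 change with PP242 relative to DMSO at 24, 48 and 72 h (one panel each) for 21 members, without ATM; points are fitted changes, bars 95% intervals, and filled points passed the adjusted p of 0.05. At 24 h 17 members lie left of 0, at 48 h 6 filled points remain on that side, and at 72 h the one filled point, UNG, lies to the right.

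The promoters of the members that changed most are printed because the members moved together at 24 h. They were taken from RefSeq (GRCh38.p14, transcript strand, 250 bases before the gene start, 5′ to 3′). The windows are RAD51AP1 at chr12:4538640-4538889, EXO1 at chr1:241847954-241848203, BLM at chr15:90717096-90717345 and RAD54L at chr1:46247438-46247687, all on the + strand. Capitals mark an E2F-type motif, which was searched on both strands as TTCCCGC, as TTGGCGC, as TTCGCGC and as TTGCCGC. The motif TTGGCGC can overlap a CCAAT box, since it reads GCGCCAA on the other strand.
RAD51AP1: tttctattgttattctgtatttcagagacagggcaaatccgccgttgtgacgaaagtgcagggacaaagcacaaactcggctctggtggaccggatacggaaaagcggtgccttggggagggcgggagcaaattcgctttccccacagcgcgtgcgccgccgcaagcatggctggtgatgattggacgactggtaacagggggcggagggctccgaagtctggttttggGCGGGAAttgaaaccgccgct
EXO1: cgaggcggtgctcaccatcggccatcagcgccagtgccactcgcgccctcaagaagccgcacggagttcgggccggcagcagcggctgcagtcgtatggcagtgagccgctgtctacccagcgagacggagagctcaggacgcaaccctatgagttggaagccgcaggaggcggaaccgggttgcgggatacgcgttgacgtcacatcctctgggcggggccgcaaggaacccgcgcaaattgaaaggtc
BLM: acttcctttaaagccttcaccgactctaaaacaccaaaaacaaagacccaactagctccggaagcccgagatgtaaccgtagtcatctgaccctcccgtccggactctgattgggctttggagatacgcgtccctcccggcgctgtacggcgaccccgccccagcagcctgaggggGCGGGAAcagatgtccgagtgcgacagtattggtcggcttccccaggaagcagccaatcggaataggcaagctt
RAD54L: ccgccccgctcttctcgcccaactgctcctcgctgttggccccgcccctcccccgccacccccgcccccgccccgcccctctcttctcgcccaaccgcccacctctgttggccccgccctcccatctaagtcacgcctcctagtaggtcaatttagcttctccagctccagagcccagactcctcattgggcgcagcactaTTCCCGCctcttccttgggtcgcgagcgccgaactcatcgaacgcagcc
The match lay 14 bases before the start in RAD51AP1, 67 in BLM and 42 in RAD54L, and each is GCGGGAA or its other strand. The EXO1 stretch held 0 matches, with 1 in the 50 bases after its start, where BLM had 2 more. A match describes these letters and is no measured binding site.

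A 300-base window (250 before to 50 after the start) was at hand for 20 of the 22 tested members, with none for FANCI and RAD54B. An E2F-type motif was present in 14 of the 20 (70.0%), in 19.2% of the windows of 9969 tested genes and in 13.1% of all 27305 windows. It was present in 12 of the 15 members that fell at 24 h and in 2 of the 5 others. CCAAT was present in 55.0% of the members' windows, against 36.7% of those of tested genes. The CHR-type motif TTTGAA was present in 10%, against 10.7%. The short HIF-type motifs ACGTG and GCGTG were present in 70.0%, against 60.4%.

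By 48 h the gap between PP242 and DMSO was narrower. Of the 22 members 6 fell and 0 rose, against 5.95% of all tested genes that fell, and the median change was −0.53. At an unadjusted p under 0.05, 11 members were lower and 0 higher (share of all genes not counted). With the replicate number as a block, 11 members fell, as did 11.1% of all genes. Scaling the arrays to one median gave 8 members and 7.37% of all genes lower, with a share of higher genes among the called of 18.4%, against 43.6% with quantile normalization. The count went down to 2 without the first PP242 48 h array, and to 3 without the fourth PP242 or the second DMSO 48 h array.

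CHEK1 had levels of 7.52, 7.96, 7.43 and 7.06 on the PP242 48 h arrays, against 8.39, 8.62, 8.23 and 8.20 on the DMSO 48 h arrays. The groups did not overlap, and it fell by 0.87 ± 0.28 (log2, SE; adjusted p = 0.0472), a call that was lost without any one of 7 of the 8 arrays (adjusted p 0.0602 to 0.15) and with no filter on dim probes (0.0689). FANCI had levels of 6.66, 7.67, 7.89 and 7.21 with PP242, against 8.29, 8.18, 7.92 and 8.36 with DMSO. The highest PP242 array came close to the lowest DMSO array, and it fell by 0.83 ± 0.24 (adjusted p = 0.0233). The call was lost without any one of 5 of the 8 arrays (adjusted p 0.0511 to 0.127) and with those groups alone in the fit (0.0583).

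FANCG had levels of 7.23, 7.71, 8.08 and 7.75 on the PP242 48 h arrays, against 8.37, 8.48, 8.31 and 8.52 on the DMSO 48 h arrays, and fell by 0.73 ± 0.15 (adjusted p = 0.00153). BARD1 had levels of 6.74, 7.55, 7.61 and 7.27 with PP242, against 7.68, 7.82, 8.09 and 8.40 with DMSO, and fell by 0.71 ± 0.20 (adjusted p = 0.0227). The BARD1 call was lost without any one of 4 arrays (adjusted p 0.0503 to 0.122) and with those groups alone (0.0744). In all 4 of these genes every PP242 array lay below every DMSO array, and in FANCI, FANCG and BARD1 the first PP242 array was the lowest. EME1 fell by 0.61 (adjusted p = 0.015), which did not pass without the second DMSO array (0.0655), without the first PP242 array (0.0714) or with those groups alone (0.0557). CHEK2 fell by 0.87 (adjusted p = 0.00521), with overlapping arrays.

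Several genes with large changes at 24 h did not pass at 48 h. RAD51AP1 had a change of −0.77 (adjusted p = 0.164, 0.0398 with the replicate block) and RAD54L of −0.69 (adjusted p = 0.0748, 0.00644 with the block). MND1, RAD54B and XRCC3 had changes of −0.91, −0.66 and −0.52, with adjusted p of 0.066, 0.0818 and 0.0544, and of 0.00916, 0.00285 and 0.0179 with the block. EXO1 and BLM each had a change of −0.53, and BRCA1 of −0.31 (adjusted p = 0.226, 0.29 and 0.44). For UNG the change was 0.09 (95% interval −0.35 to 0.53).

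After 72 h, most changes had the opposite sign of those at 24 h, but only 1 of them passed. Of the 22 members 1, UNG, rose and 0 fell, against 3.62% of all tested genes that rose. The median change was 0.34, where the members' median had a pooled SD of 0.23 between arrays of a group. At an unadjusted p under 0.05, 9 members were higher and 0 lower (share of all genes not counted). With the replicate block 4 members rose, as did 8.03% of all genes, and scaling to one median gave 0 members and 1.77% of all genes, with 27.8% of all called genes higher in place of 39.0%. The uracil glycosylase UNG had levels of 10.18, 10.16, 10.06 and 9.32 on the PP242 72 h arrays, against 9.09, 9.09, 9.10 and 9.28 on the DMSO 72 h arrays. The fourth PP242 array lay far below the other 3 and just above the highest DMSO array. UNG rose by 0.79 ± 0.21 (log2, SE; 1.73-fold, adjusted p = 0.017). The call was lost without the first PP242 array (adjusted p = 0.0598), without the second (0.0571), with the mean over its probes (0.0807) and with arrays scaled to one median (0.119).

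FANCI averaged 7.61 ± 0.29 on the PP242 72 h arrays and 6.95 ± 0.04 on the DMSO 72 h arrays (SD, n = 4 each), a change of 0.65 that did not pass (adjusted p = 0.09, 0.0426 with the replicate block). BLM, EXO1, BRCA1 and RAD51AP1 had changes of 0.73, 0.56, 0.54 and 0.51, with adjusted p of 0.126, 0.204, 0.126 and 0.441. RAD54L and XRCC3 had changes of 0.50 each (adjusted p = 0.236 and 0.0746, and 0.0488 and 0.0251 with the block). BRCA1 passed as higher with the mean over its probes (0.68, adjusted p = 0.0126). With those groups alone in the fit, FANCI (adjusted p = 0.0236), BLM (0.0254) and XRCC3 (0.0389) passed as higher. In BLM, FANCI, EXO1, XRCC3 and UNG the PP242 arrays lay above all DMSO arrays, and the share of all genes without overlap was not counted. The checkpoint kinases pointed the other way or near 0, with CHEK1 at −0.20 (95% interval −0.78 to 0.38) and CHEK2 at −0.25 (−0.67 to 0.17).

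**Figure D2:**
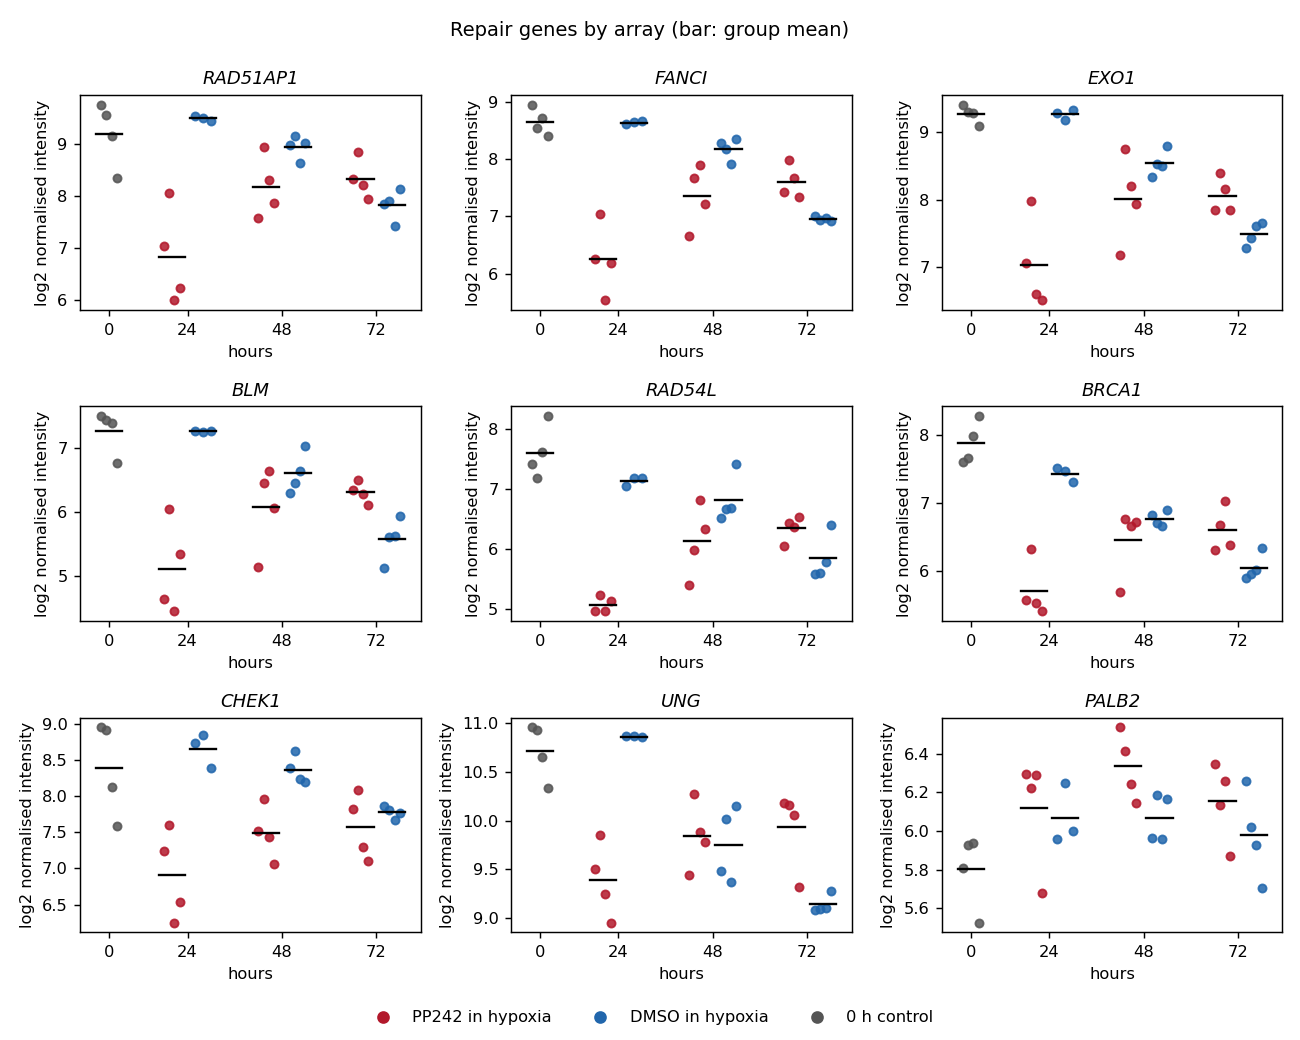
Log2 normalised intensity on every array for 9 members against hours, with PP242 arrays left of DMSO arrays and the 0 h control at the left end; short bars are group means. PP242 arrays lie below DMSO arrays at 24 h in 8 of these genes. At 72 h they lie above DMSO arrays in UNG, BLM, FANCI and EXO1, of which UNG alone passed. PALB2 has overlapping groups.

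The difference in the PP242 change between times was tested directly. Between 72 h and 24 h it was positive for 16 of 22 members and negative for 0 (adjusted p under 0.05), against 7.65% of all tested genes with a positive difference, and the median was 1.55. Scaling to one median gave 16 members and 8.65% of all genes, with 67.4% of all called genes positive in place of 49.6%. The largest differences were 3.16 ± 0.50 for RAD51AP1 (adjusted p = 5.46e-05), 3.04 ± 0.35 for FANCI (adjusted p = 1.22e-06), 2.88 for BLM and 2.80 for EXO1. The RAD54B call there was lost without the first or the second DMSO 24 h array or the fourth PP242 24 h array (adjusted p 0.0558 to 0.0785). It was also lost without the first DMSO 72 h (0.0526) or the first PP242 72 h array (0.05). Between 48 h and 24 h, 9 members had a positive difference, against 2.74% of all genes: RAD51AP1, EXO1, BLM, UNG, FANCI, BRCA1, RAD54L, XRCC3 and FANCG, with values from 1.88 down to 0.94. With the replicate block 13 members passed, as did 5.94% of all genes, the 4 added being TOPBP1 (adjusted p = 0.0061), CHEK2 (0.0182), EME1 (0.0451) and CHEK1 (0.0467). Leaving out single arrays ended the call of RAD51AP1 for 6 arrays (adjusted p 0.0615 to 0.0701), of BLM for 7 (0.0564 to 0.0674) and of RAD54L for 6 (0.0506 to 0.0628). The RAD54L call was also lost with an offset of 50 (0.0513), without background correction (0.0858) and from the authors' value table (0.0969). The BLM call was also lost with those groups alone in the fit (0.0611). The share of positive calls there was 52.3%, and 64.5% with arrays scaled to one median. Between 72 h and 48 h FANCI (1.48), FANCG (1.06) and XRCC3 (1.02) passed, 3 of 22 members against 0.411% of all genes. That count was 6 with the block, which added RAD54L, EME1 and RAD54B, and 0 when those groups alone entered the fit. Without single arrays it was 0 (the second or the fourth DMSO 48 h, the fourth PP242 48 h, the first or the second DMSO 72 h, the second or the third PP242 72 h), 1 (the first DMSO 48 h, the first PP242 48 h, the third DMSO 72 h) or 5 (the second PP242 48 h, the fourth DMSO 72 h). Of all genes called there, 61.9% were positive (84.8% with arrays scaled to one median).

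Between 24 h and 72 h members rose in PP242 cells and fell in DMSO cells, on arrays that also enter the comparisons above. In PP242 72 h against PP242 24 h, 10 members rose and 1 fell, where 3.18% of all genes rose and 2.98% fell. RAD51AP1 rose by 1.5 (adjusted p = 0.00681), FANCI by 1.35 (adjusted p = 0.000772), RAD54L by 1.28, BLM by 1.19, XRCC3 by 1.09 and EXO1 by 1.02. BRCA1, CHEK2, EME1 and FANCG rose by 0.51 to 0.88. The CHEK2 call was lost under 7 processing alternatives (adjusted p 0.054 to 0.132) and without any one of 6 of the 8 arrays (0.0816 to 0.201). The FANCG call was lost without any one of 6 arrays (0.0573 to 0.129), and EXO1 changed by 0.48 (0.187) with the mean over its probes. Single arrays also ended the calls of BRCA1, EME1 and EXO1 (3 arrays each), BLM (2) and FANCE (1), with adjusted p of 0.0509 to 0.0992. With the replicate block CHEK1 (adjusted p = 0.0087) and FANCC (0.0348) rose as well. FANCE was the member that fell, by 0.44 (adjusted p = 0.0137, 0.0612 with arrays scaled to one median and 0.0938 with those groups alone). The count of 11 calls was 7 with arrays scaled to one median and 3 when the fit held those arrays alone. It was 5, 6 and 7 without the third, the fourth or the first PP242 24 h array, and 7 without the second PP242 72 h array.

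In DMSO 72 h against DMSO 24 h, 15 members fell and 0 rose, where 9% of all genes fell. The median was −0.95, and 17 members were lower at an unadjusted p under 0.05 (share of all genes not counted). EXO1 and UNG fell by 1.77 and 1.72, FANCI and BLM by 1.68 each and RAD51AP1 by 1.66. MND1 and FANCC did not pass (adjusted p = 0.0518 and 0.0753, and 0.027 and 0.00681 with the block). The CHEK1 call was lost without the first or second DMSO 24 h array or any DMSO 72 h array (adjusted p 0.0674 to 0.166). It was also lost with no filter on dim probes (0.0682). The RAD54B call was lost without the first or the second DMSO 24 h array (0.0501 and 0.0786). Scaling to one median gave 17 members and 13.7% of all genes lower, and moved the share of higher genes among all called to 23.3% in place of 47.1%.

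Against the 0 h control, the DMSO cells in hypoxia had 1 changed member at 24 h and many lower ones later. The DMSO arrays here are the same as those set against PP242 above. At 24 h 1 of 22 members fell, FANCE by 0.65 ± 0.12 (adjusted p = 0.00245), against 0.237% of all genes, and the median was −0.02. The call of FANCE was lost with arrays scaled to one median (adjusted p = 0.0699) and when those groups alone entered the fit (0.16). At 48 h 7 members fell and 0 rose, against 7.29% of all genes that fell: BRCA1 by 1.10, UNG by 0.96, BARD1 by 0.80, FANCE and RAD54L by 0.78 each, XRCC3 by 0.71 and FANCC by 0.65. With the replicate block 10 members fell, as did 12.5% of all genes, with TOPBP1 (adjusted p = 0.00763), EXO1 (0.0196) and FANCG (0.0264) added. The RAD54L call was lost without any one of 5 arrays (adjusted p 0.0634 to 0.139) and the FANCC call without the first DMSO array (0.113). CHEK1 and CHEK2 had changes of −0.03 (95% interval −0.61 to 0.55) and 0.02 (−0.40 to 0.44) there. Scaling to one median gave 10 members and 9.07% of all genes lower, with 29.5% of the called genes higher in place of 48.8%.

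At 72 h, 17 of 22 members were lower in DMSO cells than in the control and 0 were higher, where 13.6% of all genes were lower. The median was −1.09, and 19 members were lower at an unadjusted p under 0.05 (share of all genes not counted). Scaling to one median gave 17 members and 16.3% of all genes lower, with 29.9% of the called genes higher in place of 45.8%. BRCA1 had levels of 5.90, 5.96, 6.02 and 6.34 on the DMSO 72 h arrays, against 7.59, 7.66, 7.97 and 8.27 on the control arrays. The groups lay more than 1 unit apart, and BRCA1 fell by 1.82 ± 0.22 (log2, SE; 3.53-fold lower, adjusted p = 4.6e-07). EXO1 had levels of 7.29, 7.42, 7.61 and 7.65 at DMSO 72 h, against 9.40, 9.30, 9.29 and 9.09 in the control, and fell by 1.78 ± 0.26 (adjusted p = 8.75e-06).

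RAD54L had levels of 5.59, 5.61, 5.78 and 6.40 on the DMSO 72 h arrays, against 7.41, 7.18, 7.61 and 8.21 on the control arrays. The fourth array was the highest in both groups, and RAD54L fell by 1.76 ± 0.24 (adjusted p = 4.62e-06). FANCI had levels of 7.0, 6.93, 6.97 and 6.91 at DMSO 72 h, against 8.95, 8.55, 8.72 and 8.41 in the control, and fell by 1.70 ± 0.24 (adjusted p = 4.63e-06). By role, 7 of 8 pairing genes, all 3 tested Fanconi core genes, 2 of 3 junction genes and 2 of 4 checkpoint genes fell. CHEK1 did not pass (−0.61, adjusted p = 0.12), but did with the replicate block (adjusted p = 0.00541).

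**Figure D3:**
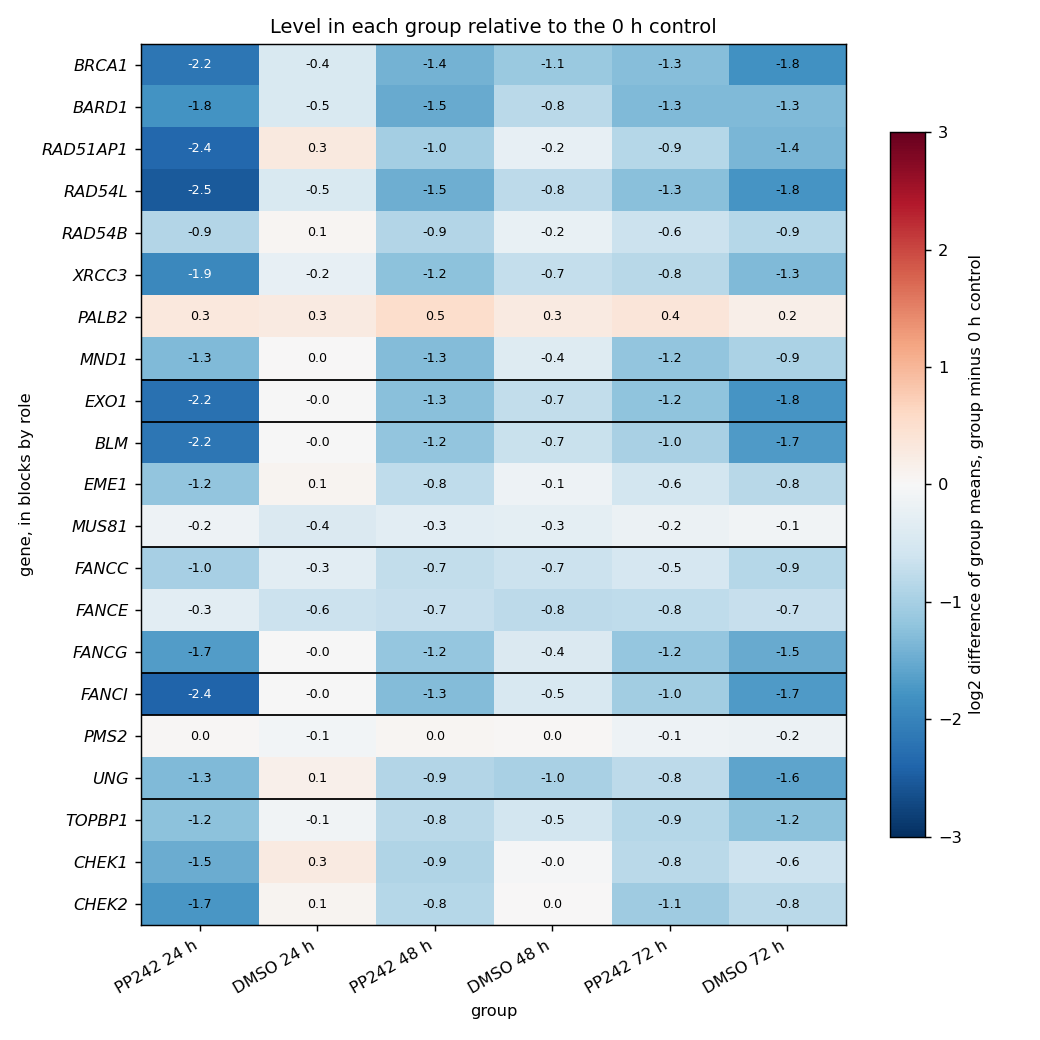
Mean log2 level of 21 members in each PP242 and DMSO group minus the mean of the 0 h control, with genes in blocks by role; colour gives the difference. Most rows are lowest at PP242 24 h and DMSO 72 h and near 0 at DMSO 24 h, while PALB2, MUS81 and PMS2 have the palest rows.

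The change with PP242 at 24 h and the change in DMSO cells between the control and 72 h share no arrays. Across the 21 members without ATM their Pearson correlation was 0.809 and their Spearman correlation 0.714, against a Pearson correlation of 0.423 over all 12664 genes. Each gene contributes the same probe to both, and genes are not independent of each other. RAD51AP1, CHEK1 and CHEK2 had the larger change with PP242 (−2.66, −1.75 and −1.84) and the smaller one in DMSO cells (−1.37, −0.61 and −0.82). BRCA1 and UNG had similar values in both, at −1.71 and −1.47 with PP242 and −1.82 and −1.58 in DMSO cells. Whether a gene's changes differ between these comparisons was not tested. For the change in DMSO cells between the control and 48 h, which also shares no arrays with PP242 at 24 h, the Pearson correlation over the 21 members was 0.274 and the Spearman correlation 0.179, against a Pearson correlation of 0.209 over all genes. Between the PP242 changes at 24 h and at 72 h, which share no arrays, the Pearson correlation over the 21 members was −0.504 (0.0492 over all genes). Between those at 24 h and at 48 h, which also share no arrays, it was 0.751 (Spearman 0.632), against 0.543 over all genes.

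**Figure D4:**
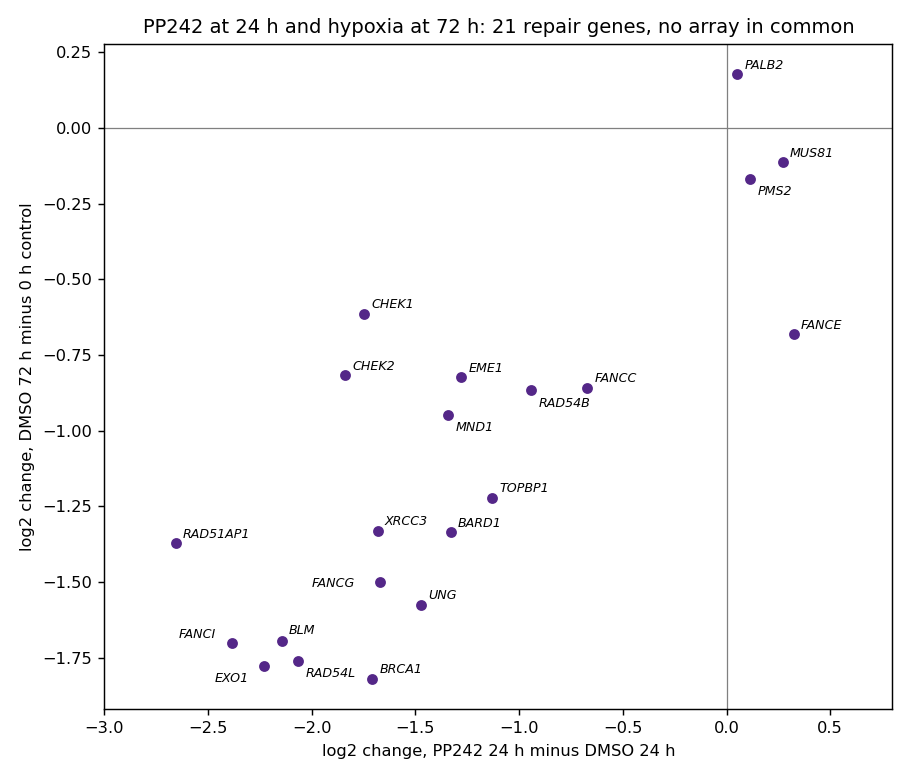
Log2 change of 21 members with PP242 relative to DMSO at 24 h (x) against the change in DMSO 72 h relative to the 0 h control (y), 1 point per gene. The Pearson correlation is 0.809, and PALB2, MUS81 and PMS2 sit near the origin.

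PALB2, MUS81 and PMS2 passed in neither PP242 24 h against DMSO 24 h nor DMSO 72 h against control, and FANCE passed in the second of these alone. PALB2 averaged 6.12 ± 0.30 at PP242 24 h (SD, n = 4) and 6.07 ± 0.16 at DMSO 24 h (SD, n = 3), and its change in DMSO 72 h cells relative to control was 0.18 (95% interval −0.13 to 0.49). MUS81 and PMS2 had changes there of −0.11 (−0.50 to 0.28) and −0.17 (−0.58 to 0.25). PMS2 was dim on all arrays, with deposited intensities of 101 to 151, which limits what a change in it could show. FANCE had levels of 8.04, 7.81, 7.88 and 8.10 on the PP242 24 h arrays, against 7.56, 7.50 and 7.84 on the DMSO 24 h arrays and 8.45, 8.32, 8.11 and 8.24 on the control arrays. Its PP242 24 h arrays thus lay mostly between the others, with 1 PP242 array just below the highest DMSO array. In DMSO 72 h cells relative to control FANCE fell by 0.68 (adjusted p = 3.54e-05). At 72 h it averaged 7.51 ± 0.09 with PP242 and 7.60 ± 0.12 with DMSO (SD, n = 4 each).

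Other probes of a member did not always give the same change. The other BRCA1 probe changed by −1.82 at 24 h with PP242. The second EXO1 probe, above background on 23 arrays, changed by −1.90, and the third, above background on 9, by −0.41. The other MND1 probe, above background on all 27 arrays, changed by only −0.21 with overlapping groups, against −1.34 for the probe used, so the MND1 probes disagree at 24 h. In DMSO 72 h cells relative to control it changed by −0.99, against −0.95 for the probe used. The other UNG probes were dim, above background on 14 and 7 arrays, and changed by −0.24 and −0.75 at 24 h and by 0.15 and 0.20 at 72 h. With PP242 at 72 h the other BRCA1 probe, above background on all 27 arrays, changed by 0.81 without overlap. The BRCA1 probe used changed by 0.54 there, with overlap.

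Further genes of the same pathways, outside the 35 members, changed less uniformly at 24 h. The lists of these and of the other pathways were also chosen with earlier results of these data known. Of 30 other recombination genes 13 fell and 4 rose, with a median of −0.43, where 11.4% of all genes fell. POLQ, the polymerase of end joining by microhomology, fell by 2.19 and PSMC3IP, the partner of MND1, by 2.15, while UIMC1, which brings BRCA1 to ubiquitin at breaks, rose by 0.63. Of 19 other Fanconi and crosslink genes 5 fell and 4 rose. UBE2T, the ubiquitin-conjugating enzyme of the Fanconi core, fell by 2.79, and WDR48, a cofactor of the enzyme that removes this ubiquitin, rose by 1.12, FAAP100 by 1.07 and the nuclease FAN1 by 0.84. With arrays scaled to one median the recombination list had 15 lower and 1 higher and the Fanconi list 8 lower and 3 higher. Of 10 other genes of mismatch repair, a list that includes the DNA synthesis factors it borrows, 6 fell and 0 rose, among them the sliding clamp PCNA by 2.66. Of 10 other checkpoint genes 5 fell and 0 rose, among them the phosphatase CDC25A (−2.85) and the fork protector TIMELESS (−1.96). At 48 h 0 of the 30 recombination genes passed, and at 72 h 1 fell and 2 rose. Of all genes 5.95% fell at 48 h and 3.62% rose at 72 h, and the share that fell at 72 h is not given here.

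Other repair pathways were described in the same way, where 11.4% of all genes fell and 10.5% rose. Of 14 nucleotide excision genes 0 fell and 2 rose at 24 h with PP242, with a median of 0.04 (1 lower and 0 higher with arrays scaled to one median). Of 14 base excision genes 3 fell and 3 rose, with a median of 0.12. Scaling the arrays to one median turned both medians, to −0.11 for nucleotide excision and −0.05 for base excision, where 3 genes fell and 0 rose. Of 7 end joining genes 2 fell and 1 rose. Of 24 S phase genes, such as the helicase subunit MCM6 (−2.01) and the thymidine kinase TK1 (−3.17), 23 fell and 0 rose, with a median of −1.94. Of 14 E2F and p53 regulators, a list that shares E2F1 and E2F2 with the S phase list, 7 fell and 0 rose. The S phase list had 1 lower and 0 higher at 48 h, and 0 lower and 11 higher at 72 h (7 with arrays scaled to one median). Of all genes 5.95% were lower at 48 h and 3.62% higher at 72 h. In DMSO 72 h cells relative to control 13.6% of all genes fell. There 22 of the 24 S phase genes fell, as did 13 of the 30 recombination genes and 6 of the 10 mismatch repair genes. Of the 14 base excision genes 5 fell and 2 rose there, of the 7 end joining genes 2 fell and 1 rose, and of the 14 nucleotide excision genes 0 fell and 1 rose. The share of all genes that rose there is not given here. Most S phase genes and most members were thus lower at PP242 24 h and in DMSO 72 h cells. Elsewhere the counts differed: at PP242 48 h 1 of 24 S phase genes and 6 of 22 members fell. At PP242 72 h 11 S phase genes and 1 member rose, and in DMSO 48 h cells relative to control 16 and 7 fell (7.29% of all genes). The part of the S phase genes in the results was not tested. With PP242, 5 of 10 hypoxia genes fell at 24 h (11.4% of all genes), 7 at 48 h (5.95% of all genes) and 7 at 72 h. In DMSO cells relative to control 9 rose at 24 h and 8 at 72 h, with a median of 2.60 at 72 h. The shares of all genes for the other hypoxia counts are not given here.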

How the data were processed

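Per the labels, RNA from SK-N-BE(2)c cells was amplified to biotinylated cRNA and hybridised to Illumina bead arrays. The authors deposited a table of non-normalized probe intensities (48107 probes, 27 arrays, whole units) and a value table of intensities (27367 probes), which lay within 2.12% of a quantile normalization of the non-normalized table computed here. Scanner software and its settings are not given in the sources used here. Probes were named from the platform annotation of the value table: 23495 had 1 symbol, 1 several and 3871 none. Symbols were checked against RefSeq, where 23471 matched and 0 changed.

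The background of each array was centred on the mode of its intensities (kernel bandwidth 1.5), with the SD of the values below it. Normexp correction (offset 16), log2 and quantile normalization over all probes followed in limma 3.58.1 (R 4.3.3). A probe entered if it exceeded background at p under 0.05 on 3 arrays or more, which left 31318 probes, 14868 of them without a name. The brightest probe of each gene left 12664 genes. One linear model held the 7 groups (20 residual degrees of freedom), with eBayes moderation and Benjamini-Hochberg adjustment over all 12664 genes, and a call needs an adjusted p under 0.05. Precision is limited by the 3 or 4 arrays of a group. The procedure was run on simulated data with independent noise on each array and changes added in the PP242 24 h group. Those data lack the shared deviations of same-numbered arrays described below, and no result here rests on them.

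Same-numbered arrays deviated together in each of the 8 comparisons of groups, with correlations of 0.103 to 0.574, so the fit with the number as a block is given where it changes a call. The pairing comes from the numbers in the labels and this check, since no label says what a number shares.

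Members given with every array were the 4 called members with the largest change and no overlap between groups, in each PP242 comparison with DMSO and in DMSO 72 h against control, with any called against the majority. The members, role groups and other lists were chosen with earlier results of these data known. Motifs were counted in RefSeq promoter windows, the first listed where a gene had several. Alternatives were another offset, no background correction, scaling, the value table, other filters, the block, fits of the compared groups alone, an intensity trend, the mean over probes and leaving out each array. Slide was not used as a block, as no slide is given.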

Additional observations from a re-analysis of the deposited data

Results flagged for a closer look

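Of 132 combinations of a member and a group of 4 arrays, 7 held an array that stood apart from the others (chance marks about 1 in 20 such groups). BRCA1 was at 5.702 on the first PP242 48 h array, with the other 3 at 6.665 to 6.763. BLM was at 6.762 on the fourth control array, against 7.396 to 7.499. PALB2 was at 5.678 on the fourth PP242 24 h array, against 6.222 to 6.293, and MUS81 at 7.589 on the second, against 8.058 to 8.13. UNG was at 9.318 on the fourth PP242 72 h array, against 10.06 to 10.18, and at 9.279 on the fourth DMSO 72 h array, against 9.087 to 9.099. ATM, a probe at background on most arrays, was at 4.633 on the first PP242 48 h array, against 4.37 to 4.412.

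The change with PP242 differed between times in the model (an interaction term, limma adjusted p under 0.05). For 72 h minus 24 h the log2 differences were 3.164 for RAD51AP1, 3.036 for FANCI, 2.876 for BLM, 2.796 for EXO1, 2.569 for RAD54L, 2.264 for UNG, 2.254 for BRCA1, 2.182 for XRCC3, 2 for FANCG, 1.587 for CHEK2, 1.546 for CHEK1, 1.546 for EME1, 1.492 for TOPBP1, 1.336 for BARD1, 1.165 for RAD54B and 1.019 for FANCC. All 16 were positive. For 48 h minus 24 h they were 1.883 for RAD51AP1, 1.706 for EXO1, 1.615 for BLM, 1.564 for UNG, 1.556 for FANCI, 1.402 for BRCA1, 1.378 for RAD54L, 1.162 for XRCC3 and 0.9414 for FANCG. For 72 h minus 48 h they were 1.481 for FANCI, 1.059 for FANCG and 1.02 for XRCC3. The losses of these calls under alternatives, given above, apply here too.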

How the results depend on the processing

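No call of a member turned direction under any alternative run. The counts of called members stayed within 1.5 times under each alternative for PP242 24 h against DMSO 24 h (16 to 18 without single arrays), DMSO 72 h against control (16 to 18), DMSO 72 h against DMSO 24 h (13 to 15), and the PP242 effect at 72 h minus 24 h (15 to 17) and at 48 h minus 24 h (6 to 11). With the replicate block, 23 of 242 member results gained a call and 0 lost one: PP242 48 h against DMSO 48 h then had 11 calls, PP242 72 h against DMSO 72 h 4 and the effect at 72 h minus 48 h 6, and the block changed no other count of members by over 1.5 times. Over all genes the block called 2554 in place of 1335 at PP242 48 h, 2241 in place of 1177 at PP242 72 h, 383 in place of 145 at DMSO 24 h, 3021 in place of 1804 at DMSO 48 h, 3273 in place of 2155 for DMSO 72 h against DMSO 24 h, 1661 in place of 781 for PP242 72 h against PP242 24 h, and 3175, 1574 and 490 in place of 1952, 663 and 84 for the effect at 72 h minus 24 h, 48 h minus 24 h and 72 h minus 48 h. With arrays scaled to one median the members' counts were 0 for PP242 72 h against DMSO 72 h, 0 for DMSO 24 h against control and 7 for PP242 72 h against PP242 24 h, and over all genes 444 were called in the last of these, 411 for 48 h minus 24 h and 46 for 72 h minus 48 h. With only the compared groups in the fit, and so fewer samples, the members' counts were 4, 0 and 3 in those comparisons and 0 for 72 h minus 48 h, and all genes gave 875 for PP242 48 h, 69 for DMSO 24 h, 1017 for DMSO 48 h, 367 for PP242 72 h against PP242 24 h and 1 for 72 h minus 48 h. DMSO 48 h against control had 11 members without background correction and 11 from the authors' value table, where 143 of all genes passed for 72 h minus 48 h. Testing every named gene, with no filter, gave 1 member for 72 h minus 48 h. Without single arrays the members' counts ran from 2 to 9 for PP242 48 h, 0 to 2 for PP242 72 h, 5 to 9 for DMSO 48 h, 5 to 12 for PP242 72 h against PP242 24 h and 0 to 5 for 72 h minus 48 h. The cause of these moves was not tested, other than the smaller samples named. The members' median at PP242 24 h was −1.71 with arrays scaled, −1.10 with an offset of 50, −0.92 without background correction and −0.90 from the value table. Slide as a block was not run. Dim members sit near background, which limits their folds. They include ATM and PMS2, and at PP242 24 h BLM, EME1, XRCC3, RAD54L and FANCC, whose mean levels there were 4.89 to 5.17.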
